A study of Mus musculus with 6 samples.

Results

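Receptors for serotonin, noradrenaline and adrenaline, dopamine, histamine and acetylcholine were followed in mouse cortex 24 h after traumatic brain injury (TBI). The genes were chosen by name, as the rows whose symbol begins with Htr, Adra, Adrb, Drd, Chrm, Chrn or Hrh followed by a receptor number or subunit letter, and the rule itself uses no measured value. This gave 53 genes of the 56826 gene rows, of which 14 encode serotonin receptors, 9 adrenergic receptors, 5 dopamine receptors, 4 histamine receptors, 5 muscarinic acetylcholine receptors and 16 nicotinic acetylcholine receptor subunits. The mice were wild-type C57BL/6, an inbred laboratory strain, in 2 groups of 3 libraries each. The TBI group is cortex taken around the lesion at 24 h after TBI, and the control group is cortex of normal mice. The labels give no age, sex or injury device, and nothing in them says whether the 3 libraries of a group came from separate animals, so p-values measure only the spread between these libraries. Total RNA was sequenced, and the deposited values are a read count and an RPKM (reads scaled by row length and by the total count of the library) for each row and library.

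These receptors carry the signals of long, diffusely branching projections that reach the cortex from the brainstem, hypothalamus and basal forebrain and set its arousal, attention and plasticity. Most are G protein-coupled. The Gq-coupled ones (Htr2 receptors, Adra1 receptors, Chrm1, Chrm3, Chrm5, Hrh1) activate phospholipase C and raise intracellular calcium, the Gs-coupled ones (beta-adrenergic receptors, Htr4, Htr6, Htr7, Drd1a, Drd5, Hrh2) raise cyclic AMP, and the Gi-coupled ones (Htr1 receptors, Adra2 receptors, Drd2, Drd4, Chrm2, Chrm4, Hrh3) lower it. The nicotinic subunits and the Htr3 subunits instead form ion channels that open when the transmitter binds.

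Total counts were 68808787 to 72169720 in TBI libraries and 67252519 to 83929814 in control libraries, and rows overlap, so these totals overstate the reads counted. Markers of neurons were present in all 6 libraries, and the RPKM of 8 markers shared by all neurons summed to 1500, 1390 and 1370 in TBI libraries and to 1790, 1660 and 1740 in control libraries. Of these 8 markers, 5 were called lower, and their median log2 fold change was -0.33. Markers of infiltrating monocytes and macrophages (6 of 6 tested called higher) summed to 43.2, 39.7 and 57.6 RPKM in TBI libraries and to 3.75, 4.19 and 4.07 RPKM in control libraries. Markers of other brain regions were also detected: 7 striatal markers summed to 226, 258 and 135 RPKM in TBI libraries and to 134, 347 and 123 RPKM in control libraries, so that control library 2 stands apart from the other 2 control libraries. Thalamus and habenula markers summed to 25.0, 23.7 and 24.1 RPKM in TBI libraries and to 5.14, 6.97 and 12.2 RPKM in control libraries. Choroid plexus markers summed to 627, 443 and 255 RPKM in TBI libraries and to 171, 92.1 and 165 RPKM in control libraries. None of 5 hippocampal markers was called. The part of such tissue in the receptor values was not tested.

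In the test on counts, 46 of the 53 receptor genes had enough reads, and 12 were called lower and 3 higher in TBI cortex (edgeR's quasi-likelihood test, Benjamini-Hochberg adjusted p under 0.05 over all 42762 rows tested). The share called lower was 26.1% of the receptor genes tested, beside 8.36% of all rows tested and 10.7% of the 16941 named genes tested. The share called higher was 6.52%, beside 9.12% of all rows and 15.4% of the named genes. The median log2 fold change (TBI over control) of the 46 genes was -0.17, beside 0.006 over all rows tested, and 31 of the 46 were negative (67.4%, beside 49.3% of all rows). The deposited RPKM values of the groups did not overlap for 10 receptor genes below and 4 above control (21.7% and 8.7%), beside 11.2% and 23.2% of all rows. The lower genes were Htr2a, Htr1f, Htr7, Adrb1, Adrb3, Adra1d, Adra2a, Chrm1, Chrm3, Chrm4, Hrh1 and Chrna4, and the higher ones were Drd4, Htr3a and Chrna3. Of these 15 calls, 9 held under all of 13 other settings of the processing (other normalizations, filters and tests, the replicate block, and each library left out in turn). Under a further scaling to neuronal markers, 6 of the 9 were still called (Htr2a, Adrb1, Adrb3, Chrm1, Chrm3 and Drd4), while Htr1f, Hrh1 and Chrm4 were not. In bulk tissue, fewer cells of a type and less RNA per cell cannot be told apart.

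**Figure D1:**
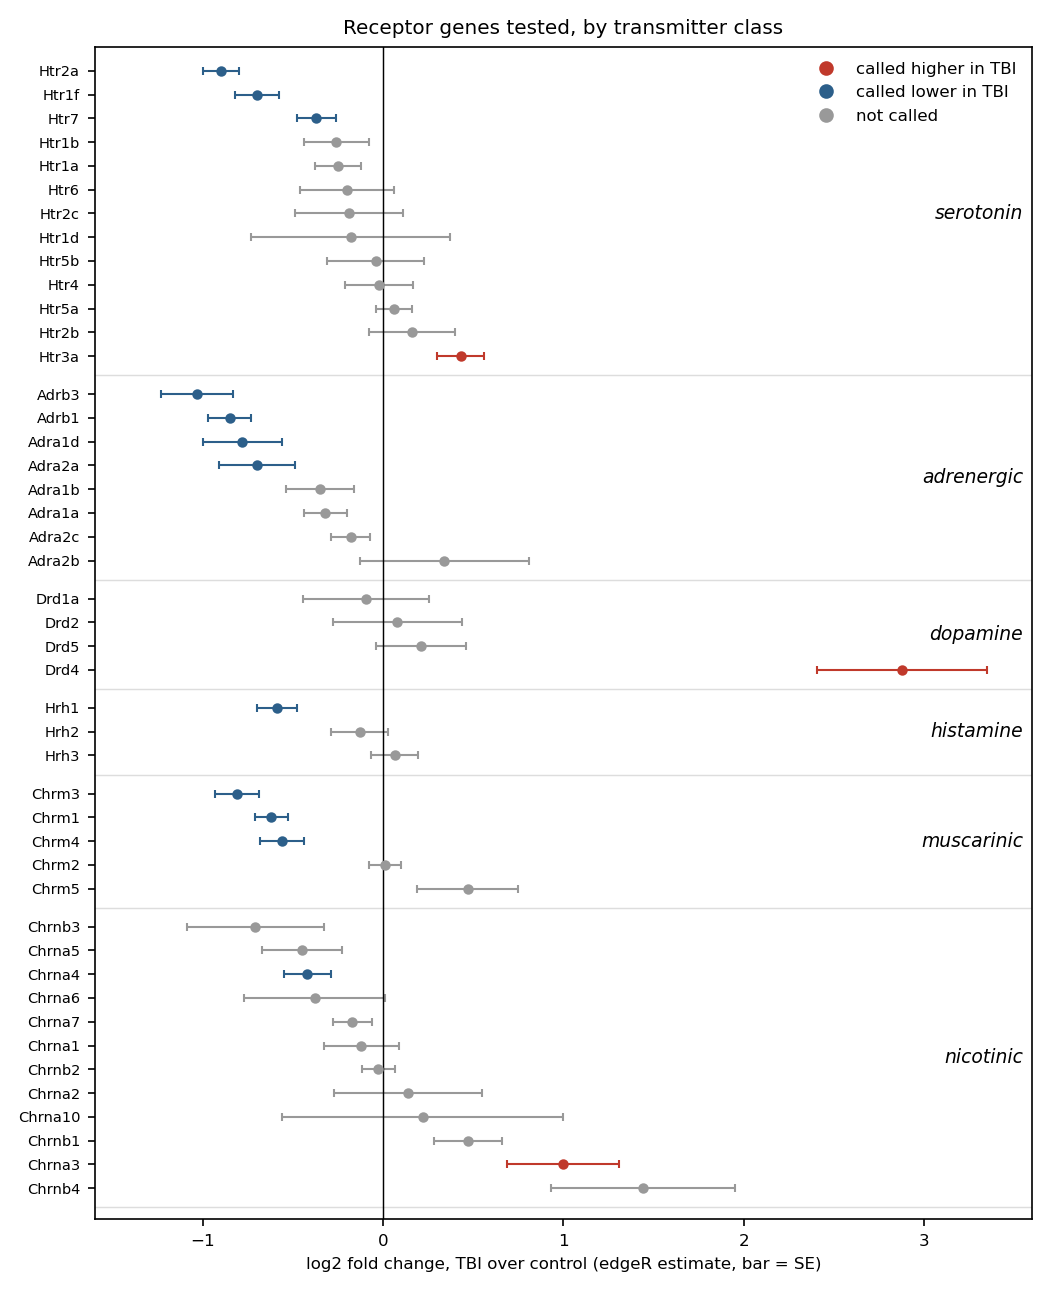
Log2 fold change of TBI over control for 45 of the 46 receptor genes tested, with the SE as bar, grouped by transmitter class and ordered by size within each class. The lower genes lie between -1.03 (Adrb3) and -0.37 (Htr7), and Drd4, at 2.88, stands far right of the others.

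By signalling route, 5 of 10 Gq-coupled receptor genes were called lower and none higher, with a median log2 fold change of -0.47 and 8 negative values. Of 9 Gs-coupled genes, 3 were called lower and none higher (median -0.13, 8 negative). Of 13 Gi-coupled genes tested, 3 were called lower and 1 higher (median -0.18, 7 negative). Of 13 channel subunits tested, 1 was called lower and 2 higher (median -0.03, 7 negative). The rat-and-mouse receptor Htr5b was assigned to no route. Of all rows tested, 8.36% were called lower and 9.12% higher. When scaled to neuronal markers, which shifts all genes upward, the counts were 3 lower and 1 higher for Gq-coupled genes, 2 and 0 for Gs-coupled genes, 0 and 4 for Gi-coupled genes and 0 and 5 for channel subunits. Under that scaling, 1.56% of all rows were called lower and 42.1% higher. The counts of the routes were not tested against each other.

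Upstream sequences of 3 genes that were lower (Htr2a, Adrb1, Htr1f) and of the gene with the largest increase (Drd4) are printed here so that they can be read side by side. They come from RefSeq (GRCm38.p6), are written 5′ to 3′ in the direction of the gene, and stop before the deposited start of the row and before the RefSeq start of transcription. Htr2a and Adrb1 had the smallest adjusted p among the lower genes, and Htr1f was added after the motif search described next because it is one of the 2 lower genes with a match. Capitals mark its match to the C/EBP motif.
Htr2a, chr14:74640624-74640839, plus strand: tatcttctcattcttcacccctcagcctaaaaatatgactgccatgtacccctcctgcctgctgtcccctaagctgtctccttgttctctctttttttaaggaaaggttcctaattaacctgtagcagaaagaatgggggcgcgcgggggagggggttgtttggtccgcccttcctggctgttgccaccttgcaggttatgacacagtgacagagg
Adrb1, chr19:56721867-56722116, plus strand: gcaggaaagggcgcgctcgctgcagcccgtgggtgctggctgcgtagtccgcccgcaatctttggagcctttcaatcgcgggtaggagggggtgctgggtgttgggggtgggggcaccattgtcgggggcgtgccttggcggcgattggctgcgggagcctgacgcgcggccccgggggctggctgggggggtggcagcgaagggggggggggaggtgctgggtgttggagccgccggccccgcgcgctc
Htr1f, chr16:65105785-65106034, minus strand: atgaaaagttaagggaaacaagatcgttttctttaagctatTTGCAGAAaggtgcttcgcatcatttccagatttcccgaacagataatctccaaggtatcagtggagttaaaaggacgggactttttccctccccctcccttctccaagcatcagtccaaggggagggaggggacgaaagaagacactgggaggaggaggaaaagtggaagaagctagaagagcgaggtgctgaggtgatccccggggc
Drd4, chr7:141291768-141291973, plus strand: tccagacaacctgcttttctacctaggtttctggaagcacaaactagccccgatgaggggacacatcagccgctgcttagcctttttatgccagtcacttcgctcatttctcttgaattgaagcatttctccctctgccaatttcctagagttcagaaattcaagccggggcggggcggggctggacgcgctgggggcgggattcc
The full windows (250 bases before to 50 after the start) of 40 of the 53 genes, 49 promoters in all, were searched on both strands for the AP-1 motif TGANTCA, the cyclic AMP response element TGACGTCA and the C/EBP motif TTGCNNAA. The AP-1 motif was in 5 of the 49 windows, beside 7.81% of 32851 mouse promoters, and in 1 of the 12 windows of genes called lower, that of Hrh1. The C/EBP motif was in 9 of the 49, beside 10.8% of all promoters, and in 3 of the 12 windows of genes called lower, those of Hrh1 and Htr1f. The cyclic AMP response element was in none of the 49, beside 1.79% of all promoters. Neither of the 2 windows of genes called higher held any of these motifs, which says only that these letters are not in those windows. The GC content of the printed stretches was 74.0% in Adrb1, 53.9% in Drd4, 51.4% in Htr2a and 49.2% in Htr1f.

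Muscarinic receptors, the G protein-coupled receptors for acetylcholine, were the class with the lowest median: 3 of 5 were called lower, none was called higher, and the median log2 fold change was -0.56 (-0.19 when libraries are scaled to neuronal markers, which shifts all genes upward). Their RPKM summed to 32.5, 31.9 and 32.7 in TBI libraries and to 47.8, 43.1 and 42.5 in control libraries, with no overlap. Chrm1 (chr19:8664005-8683606), the main Gq-coupled muscarinic receptor of cortical pyramidal neurons, had 9.78, 9.87 and 11.0 RPKM in TBI libraries and 16.2, 14.5 and 13.7 RPKM in control libraries. All 3 TBI values lay below the lowest control value, and the log2 fold change was -0.62 ± 0.09 (SE; edgeR adjusted p = 0.000365). Chrm3 (chr13:9875486-10360803), also Gq-coupled and widespread in forebrain neurons, had 8.78, 8.01 and 9.23 RPKM in TBI libraries and 16.4, 11.9 and 14.6 RPKM in control libraries. These groups did not overlap either, and the difference was -0.81 ± 0.12 on the log2 scale (edgeR adjusted p = 0.000487). Chrm4 (chr2:91922189-91929835), a Gi-coupled receptor abundant in striatal projection neurons, had 6.98, 6.83 and 5.33 RPKM in TBI libraries and 8.92, 10.2 and 7.57 RPKM in control libraries. It too was lower without overlap (-0.56 ± 0.12, edgeR adjusted p = 0.00717), and TBI library 3 and control library 3 were the lowest of their groups. The call for each of these 3 genes held under all 13 settings, and that of Chrm4 was lost when scaled to neuronal markers (-0.19, edgeR adjusted p = 0.226).

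The other two muscarinic genes did not follow. Chrm2, a Gi-coupled receptor known as the autoreceptor on cholinergic terminals, had 6.26, 5.94 and 6.40 RPKM in TBI libraries and 5.94, 5.58 and 5.94 RPKM in control libraries, with a log2 fold change of 0.01 ± 0.09 (edgeR adjusted p = 0.959). Before rounding, all TBI values of Chrm2 lay above all control values, so it is among the 4 genes counted above without overlap. RPKM is scaled by the library total and the fold change by TMM, so the 2 measures can differ. Chrm5, a Gq-coupled receptor known from dopamine neurons, had 0.708, 1.20 and 0.832 RPKM in TBI libraries and 0.383, 0.842 and 0.641 RPKM in control libraries (0.47 ± 0.28, edgeR adjusted p = 0.291). Its groups overlap, and its row lies over 44048 bases of Aven on the opposite strand, whose reads cannot be told apart from its own because the strand setting of the counting is not given in the sources used here. By level per length, Chrm1 and Chrm3 were the highest muscarinic genes in both groups. They averaged 10.2 ± 0.652 and 8.67 ± 0.613 RPKM in TBI libraries and 14.8 ± 1.25 and 14.3 ± 2.27 RPKM in control libraries (SD, n = 3 each), where the 2 levels differed by less than their spread.

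**Figure D2:**
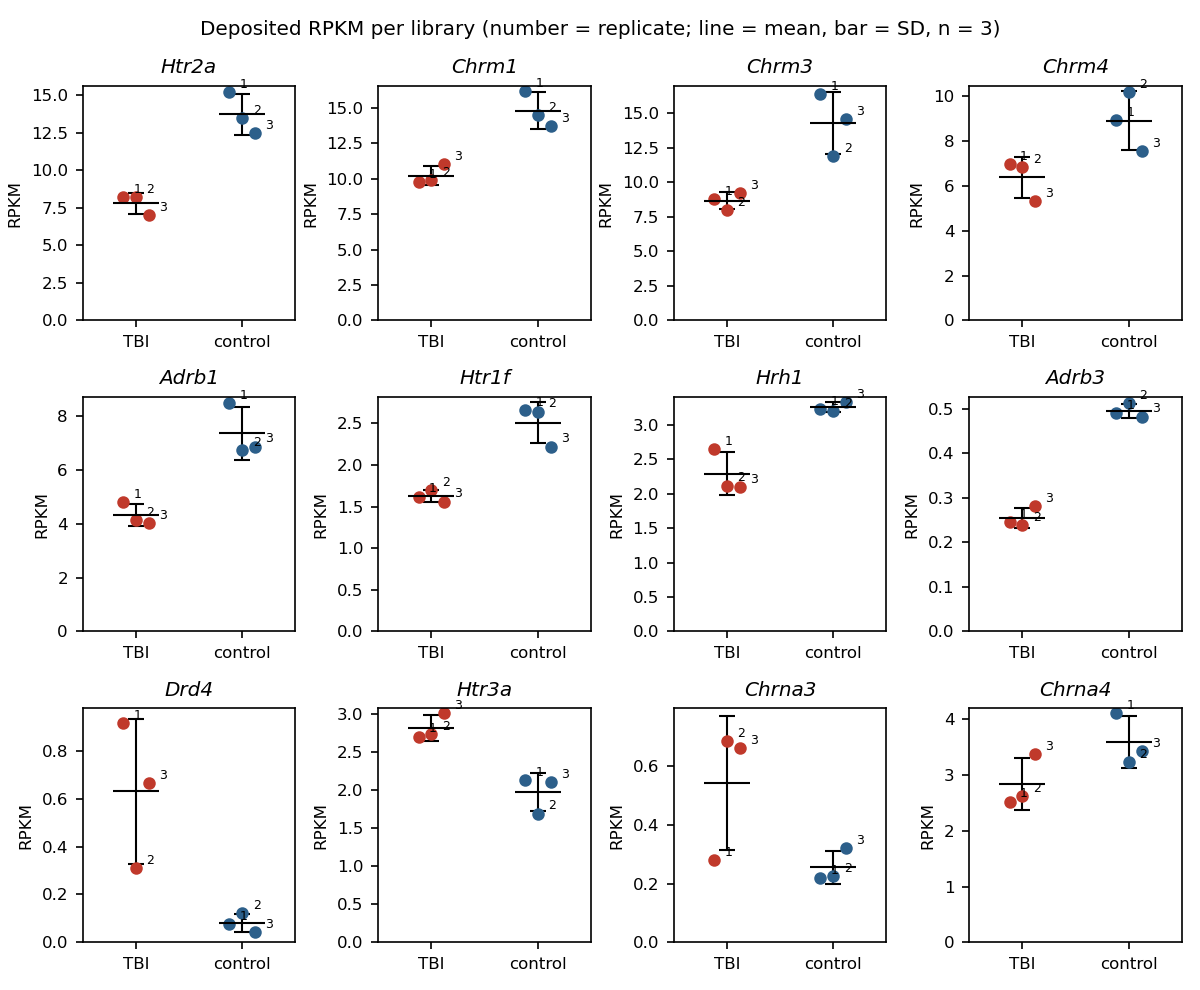
Deposited RPKM in each library for 12 receptor genes called in the test, with TBI left of control, each point labelled by its replicate number, a line at the mean and a bar of 1 SD (n = 3). The 8 genes of the upper rows do not overlap between groups; in the lowest row Drd4 and Htr3a lie above control without overlap, while Chrna3 and Chrna4 overlap.

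Of the 13 serotonin receptor genes tested, 3 were called lower and 1 higher, with a median log2 fold change of -0.19. Htr2a (chr14:74640840-74706859), the Gq-coupled receptor of cortical pyramidal neurons through which psychedelics act, had 8.22, 8.20 and 6.99 RPKM in TBI libraries and 15.2, 13.5 and 12.5 RPKM in control libraries. It had the smallest adjusted p of the receptor genes: its log2 fold change was -0.90 ± 0.10 (edgeR adjusted p = 5.92e-05, at most 0.000385 under the 13 settings and 0.000714 when scaled to neuronal markers). The TBI libraries lay well below the control libraries, whose lowest value was 12.5. A cDNA clone on the opposite strand shares 1020 bases with Htr2a, at 140, 135 and 119 counts in TBI libraries and 208, 236 and 238 counts in control libraries. Htr1f (chr16:64924729-65105784), a Gi-coupled receptor that is the target of a migraine drug, had 1.62, 1.70 and 1.56 RPKM in TBI libraries and 2.66, 2.64 and 2.22 RPKM in control libraries. The groups were apart and the difference was -0.70 ± 0.12 (edgeR adjusted p = 0.00145), called under all 13 settings but not when scaled to neuronal markers (-0.33, edgeR adjusted p = 0.0556). Htr7 (chr19:35958415-36058285), a Gs-coupled receptor of thalamus and cortex, had 2.35, 2.74 and 2.63 RPKM in TBI libraries and 3.03, 2.93 and 3.46 RPKM in control libraries. Its groups did not overlap, but the smaller difference (-0.37 ± 0.11, edgeR adjusted p = 0.0365) was no longer called without TBI library 1 or 3 or control library 1 or 3, with adjusted p between 0.0197 and 0.162 over the 13 settings.

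Htr3a (chr9:48899213-48911152) encodes the core subunit of the serotonin-gated cation channel and marks a class of cortical interneurons. It had 2.70, 2.73 and 3.01 RPKM in TBI libraries and 2.13, 1.69 and 2.10 RPKM in control libraries, so every TBI value was above every control value. The difference of 0.43 ± 0.13 (edgeR adjusted p = 0.0448) lost its call when any 1 of the 6 libraries was left out, with adjusted p between 0.026 and 0.140 over the 13 settings. Markers of inhibitory neurons had a median log2 fold change of -0.32, with 4 of 9 called lower and none higher. Its partner subunit Htr3b was too low to test, at 1, 3 and 4 counts in TBI libraries and 3, 0 and 0 counts in control libraries.

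The remaining serotonin receptors were not called. Htr1a, the Gi-coupled receptor that also serves as the autoreceptor of serotonin neurons, had 3.44, 4.89 and 4.77 RPKM in TBI libraries and 5.09, 4.45 and 5.23 RPKM in control libraries (-0.25 ± 0.13, edgeR adjusted p = 0.214), with overlap. Htr2c, a Gq-coupled receptor of striatum and choroid plexus, had 6.32, 7.86 and 5.72 RPKM in TBI libraries and 3.62, 12.3 and 5.72 RPKM in control libraries (-0.19 ± 0.30, edgeR adjusted p = 0.747). Control library 2, with the highest striatal markers, gave its highest value, and without that library the log2 fold change of Htr2c was 0.41 (edgeR adjusted p = 0.140, beside 0.140 to 0.961 over the 13 settings). The 6 choroid plexus markers summed to 627, 443 and 255 RPKM in TBI libraries and to 171, 92.1 and 165 RPKM in control libraries, with Ttr making up most of that sum and 3 of the 6 called higher; their part in the Htr2c values was not tested. Htr5a, a Gi-coupled receptor of cortex and hippocampus, averaged 3.88 ± 0.359 RPKM in TBI libraries and 3.52 ± 0.249 RPKM in control libraries (SD, n = 3 each) and was not called (0.06 ± 0.10, edgeR adjusted p = 0.736). Htr1b, a Gi-coupled terminal autoreceptor, averaged 3.44 ± 0.506 RPKM in TBI libraries and 3.91 ± 1.10 RPKM in control libraries, and its row shares 623 bases with the opposite-strand gene D430036J16Rik, which has similar counts. Htr4 and Htr6, both Gs-coupled, Htr5b, of which the human copy is not functional, and Htr2b, which lies inside Psmd1 on the opposite strand, averaged 0.475 to 1.06 RPKM in TBI libraries and 0.517 to 1.02 RPKM in control libraries.

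Of the 9 adrenergic receptor genes, which answer to noradrenaline and adrenaline, 4 were called lower and none higher, and 8 had a negative log2 fold change (median -0.35, and 0.04 when scaled to neuronal markers). Their summed RPKM was 22.8, 20.8 and 21.0 in TBI libraries and 32.2, 27.3 and 28.7 in control libraries, again without overlap. Adrb1 (chr19:56722372-56724862), the Gs-coupled beta receptor most abundant in cortex, had 4.80, 4.13 and 4.03 RPKM in TBI libraries and 8.47, 6.72 and 6.86 RPKM in control libraries. The groups were apart by more than their own ranges, and the difference was -0.85 ± 0.12 (edgeR adjusted p = 0.00034, at most 0.00209 under the 13 settings and 0.00353 when scaled to neuronal markers). Adrb3 (chr8:27225776-27229588), the Gs-coupled receptor best known from fat cells, was present at 49, 48 and 54 counts in TBI libraries and 92, 106 and 113 counts in control libraries. These are 0.246, 0.238 and 0.281 RPKM in TBI libraries and 0.489, 0.512 and 0.482 RPKM in control libraries, with a log2 fold change of -1.03 ± 0.20 (edgeR adjusted p = 0.00291) that was called under all 13 settings. A cDNA clone on the opposite strand shares 903 bases with Adrb3 and had 53, 44 and 50 counts in TBI libraries and 52, 46 and 67 counts in control libraries, and reads of these rows cannot be told apart.

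Both alpha receptors that were called lost the call under some settings. Adra1d (chr2:131545357-131562285), a Gq-coupled receptor of cortex and hippocampus, had 5.21, 3.27 and 4.44 RPKM in TBI libraries and 8.64, 4.52 and 7.67 RPKM in control libraries. TBI library 1 lay above control library 2, so the groups overlap, and the difference of -0.78 ± 0.22 (edgeR adjusted p = 0.0291) was lost without TBI library 2 or 3, without control library 1 or 3 and with DESeq2, with adjusted p between 3.45e-05 and 0.125 over the 13 settings. A cDNA clone on the opposite strand shares 919 bases with it and had counts of 432, 312 and 340 in TBI libraries and 709, 408 and 868 in control libraries, and reads of these rows cannot be told apart. Adra2a (chr19:54045182-54048982), the Gi-coupled receptor that acts as autoreceptor of noradrenaline neurons and in prefrontal cortex, had 0.857, 1.49 and 1.36 RPKM in TBI libraries and 1.59, 2.57 and 1.57 RPKM in control libraries. The groups did not overlap, by a small gap, and the difference of -0.70 ± 0.21 (edgeR adjusted p = 0.0398) was lost without TBI library 1 or 3, without control library 2 and with cDNA clone rows left out, with adjusted p between 0.00113 and 0.143. A clone on the opposite strand shares 1703 bases with Adra2a and had 83, 164 and 192 counts in TBI libraries and 196, 352 and 252 counts in control libraries, so the same limit holds.

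The other alpha receptors overlapped between groups. Adra2c, Gi-coupled, had 4.78, 5.92 and 5.04 RPKM in TBI libraries and 5.19, 6.53 and 5.15 RPKM in control libraries (-0.18 ± 0.11, edgeR adjusted p = 0.321). Adra1b, Gq-coupled, had 3.26, 2.10 and 2.79 RPKM in TBI libraries and 3.96, 2.38 and 3.42 RPKM in control libraries (-0.35 ± 0.19, edgeR adjusted p = 0.269), and library 2 was the lowest of each group. It was called lower without control library 2 (-0.54, edgeR adjusted p = 0.0383) and with the replicate block (edgeR adjusted p = 0.0349), beside 0.0349 to 0.662 over the 13 settings. Adra1a, also Gq-coupled, averaged 2.32 ± 0.222 RPKM in TBI libraries and 2.75 ± 0.409 RPKM in control libraries (-0.32 ± 0.12, edgeR adjusted p = 0.0929), and was called lower without control library 3 (-0.44, edgeR adjusted p = 0.0323) and with the replicate block (edgeR adjusted p = 0.0309), beside 0.0309 to 0.304 over the 13 settings. Adra2b, a Gi-coupled receptor of thalamus and vessels, averaged 0.199 ± 0.0356 RPKM in TBI libraries and 0.149 ± 0.119 RPKM in control libraries (SD, n = 3 each), where control library 1 had 9 counts.

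Among dopamine receptors, Drd4 (chr7:141291974-141296238) was called higher, and the genes that define striatal neurons varied with the library. Drd4, a Gi-coupled receptor of prefrontal cortex, had 87, 30 and 61 counts in TBI libraries and 7, 12 and 5 counts in control libraries, or 0.915, 0.311 and 0.664 RPKM in TBI libraries and 0.0779, 0.121 and 0.0446 RPKM in control libraries. Its groups were far apart, though the level stayed under 1 RPKM in all 6 libraries and TBI library 2 had the lowest of the TBI values. The log2 fold change was 2.88 ± 0.47 (edgeR adjusted p = 0.00116, at most 0.00958 under the 13 settings), the largest of the 46 receptor genes. Drd5, a Gs-coupled receptor of cortex and hippocampus, averaged 1.75 ± 0.486 RPKM in TBI libraries and 1.42 ± 0.483 RPKM in control libraries (SD, n = 3 each; 0.21 ± 0.25, edgeR adjusted p = 0.640).

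Drd1a (Drd1 in RefSeq), the Gs-coupled receptor of the direct striatal pathway, had 13.2, 16.6 and 7.84 RPKM in TBI libraries and 8.01, 22.7 and 7.64 RPKM in control libraries. Drd2, the Gi-coupled receptor of the indirect pathway, had 4.89, 5.94 and 3.23 RPKM in TBI libraries and 2.74, 7.74 and 2.24 RPKM in control libraries. Control library 2 held the highest value of both genes and of the striatal markers, and library 2 was also the highest of the TBI group. Neither was called (Drd1a -0.09 ± 0.35, edgeR adjusted p = 0.900; Drd2 0.08 ± 0.36, edgeR adjusted p = 0.921). Without control library 2, Drd2 had a log2 fold change of 0.82 and an edgeR adjusted p of 0.0261, beside a range of 0.0261 to 0.975 over the 13 settings, and Drd1a had 0.58 with an adjusted p of 0.107. Htr1d, a Gi-coupled receptor of serotonin terminals, had 93, 123 and 81 counts in TBI libraries and 32, 258 and 51 counts in control libraries. Its log2 fold change changed sign, at -0.18 with all libraries and 1.26 without control library 2 (edgeR adjusted p = 0.00629, beside 0.00629 to 0.956 over the 13 settings). Drd3, a Gi-coupled receptor of the ventral striatum, was too low to test, with 5, 10 and 8 counts in TBI libraries and 3, 45 and 4 counts in control libraries. The part of striatal markers in these values was not tested. The deposited row length of Drd1a, 3529 bases, exceeds the 1341 bases between its deposited ends, so its RPKM is not set against that of other genes.

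**Figure D3:**
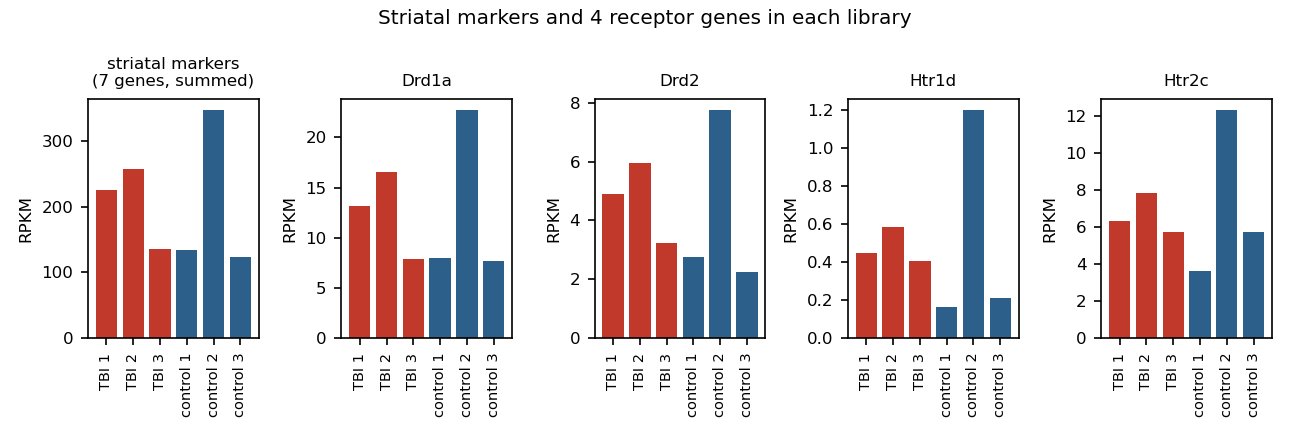
RPKM in each of the 3 TBI libraries and the 3 control libraries for the sum of 7 striatal markers and for Drd1a, Drd2, Htr1d and Htr2c. Control library 2 has the tallest bar in all 5 panels, and TBI library 2 the tallest of the TBI bars.

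Among histamine receptors, 1 of 3 tested was called lower. Hrh1 (chr6:114397936-114483296), the Gq-coupled receptor through which sedating antihistamines act, had 2.65, 2.12 and 2.10 RPKM in TBI libraries and 3.23, 3.20 and 3.34 RPKM in control libraries. The control values lay close together and above all TBI values, and the difference was -0.59 ± 0.11 (edgeR adjusted p = 0.00238), called under all 13 settings but not when scaled to neuronal markers (-0.22, edgeR adjusted p = 0.104). Hrh3, the Gi-coupled autoreceptor of histamine neurons, had 9.78, 12.7 and 9.59 RPKM in TBI libraries and 10.2, 11.1 and 7.78 RPKM in control libraries (0.07 ± 0.13, edgeR adjusted p = 0.804). Hrh2, Gs-coupled, had 1.21, 0.863 and 1.21 RPKM in TBI libraries and 1.17, 1.11 and 1.13 RPKM in control libraries (-0.13 ± 0.16, edgeR adjusted p = 0.632). Both overlap between the groups. Hrh4, a Gi-coupled receptor of blood leukocytes, had 2, 0 and 0 counts in TBI libraries and none in the 3 control libraries, which allows up to 3 counts per library, while 6 of 6 neutrophil markers tested were called higher, at 50.6, 37.3 and 109 RPKM in sum in TBI libraries and 3.26, 1.56 and 3.41 RPKM in control libraries.

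Of 12 nicotinic subunits tested, the parts of acetylcholine-gated cation channels, 1 was called lower and 1 higher, with a median log2 fold change of -0.07. When scaled to neuronal markers, the median was 0.31, with none called lower and 4 higher, beside 1.56% and 42.1% of all rows. Chrna4 (chr2:181022311-181043577), which with Chrnb2 forms the main high-affinity nicotinic receptor of the brain, had 2.52, 2.62 and 3.37 RPKM in TBI libraries and 4.11, 3.23 and 3.43 RPKM in control libraries. TBI library 3 lay within the control range, and the difference of -0.42 ± 0.13 (edgeR adjusted p = 0.0430) was lost without TBI library 1 or 2 or control library 1 or 3, with adjusted p between 0.0111 and 0.177. Its partner Chrnb2 had 9.43, 11.4 and 9.62 RPKM in TBI libraries and 9.78, 9.27 and 10.3 RPKM in control libraries (-0.03 ± 0.09, edgeR adjusted p = 0.891). Chrna7, which forms homomeric calcium-permeable receptors, had 4.23, 4.61 and 3.82 RPKM in TBI libraries and 4.31, 4.39 and 4.80 RPKM in control libraries (-0.17 ± 0.11, edgeR adjusted p = 0.320). Chrnb2 and Chrna7 overlap between the groups.

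Chrna3, Chrna5 and Chrnb4 neighbour each other on chromosome 9 and are known from autonomic ganglia and the medial habenula. Chrna3 (chr9:55011343-55026559), the ligand-binding subunit, had 62, 154 and 142 counts in TBI libraries and 46, 52 and 84 counts in control libraries, or 0.279, 0.683 and 0.661 RPKM in TBI libraries and 0.219, 0.225 and 0.320 RPKM in control libraries. TBI library 1 lay below control library 3, so the groups overlap. The difference of 1.0 ± 0.31 (edgeR adjusted p = 0.0462) was lost in 7 of the 13 settings, among them limma-voom and the omission of TBI library 2 or 3 or of any 1 control library, with adjusted p between 0.00443 and 0.168. Chrnb4, its partner, had 13, 34 and 28 counts in TBI libraries and 4, 8 and 16 counts in control libraries and was not called (1.44 ± 0.51, edgeR adjusted p = 0.0720). It was called higher without TBI library 1 (1.75, edgeR adjusted p = 0.0482) and with the replicate block (edgeR adjusted p = 0.0365), beside 0.0365 to 0.227 over the 13 settings. Chrna5, the accessory subunit, had 0.852, 0.921 and 0.977 RPKM in TBI libraries and 1.30, 0.749 and 1.49 RPKM in control libraries and was not called (-0.45 ± 0.22, edgeR adjusted p = 0.205), though it was called lower without control library 2 (-0.71, edgeR adjusted p = 0.00591, beside 0.00591 to 0.595 over the 13 settings). Of 6 markers of thalamus and habenula, 4 were called higher, and the 6 summed to 25.0, 23.7 and 24.1 RPKM in TBI libraries and to 5.14, 6.97 and 12.2 RPKM in control libraries. Among them Gpr151, a receptor of habenular neurons, had 1.95, 2.66 and 2.55 RPKM in TBI libraries and 0.519, 0.967 and 0.569 RPKM in control libraries. Pou4f1, a transcription factor of the medial habenula, had 33, 75 and 107 counts in TBI libraries and 5, 2 and 47 counts in control libraries and was not called. Their part in the Chrna3 and Chrnb4 values was not tested.

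The remaining nicotinic subunits were low. Chrnb1, the beta subunit of the muscle receptor, had 1.05, 1.11 and 1.21 RPKM in TBI libraries and 0.955, 0.728 and 0.621 RPKM in control libraries, with no overlap but no call (0.47 ± 0.19, edgeR adjusted p = 0.110). It was called higher without control library 1 (0.67, edgeR adjusted p = 0.0344, beside 0.0344 to 0.333 over the 13 settings), and none of the 4 skeletal muscle markers tested was called. The other muscle subunits were Chrna1, which averaged 0.225 ± 0.0316 RPKM in TBI libraries and 0.231 ± 0.0243 RPKM in control libraries (SD, n = 3 each), and Chrnd, Chrne and Chrng, which were too low to test, with at most 7 counts in a TBI library and 13 in a control library. Chrna6 and Chrnb3, known from dopamine neurons and retina, averaged 0.261 and 0.108 RPKM in TBI libraries and 0.317 and 0.167 RPKM in control libraries. Chrna2, known from scattered interneurons, averaged 0.197 RPKM in TBI libraries and 0.171 RPKM in control libraries. Chrna10, a subunit of inner ear hair cells, had 7, 29 and 10 counts in TBI libraries and 1, 31 and 8 counts in control libraries, and its partner Chrna9, with at most 2 counts in a TBI library and 4 in a control library, was not tested.

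In the transcript table, the 53 genes have 63 transcripts, and 7 genes have more than 1. Of 56 transcripts tested, 15 were called lower and 3 higher (edgeR, adjusted over 49090 rows), beside 9.81% lower and 10.1% higher of all transcript rows. The higher transcripts were those of Drd4 and Htr3a, while the transcript of Chrna3 was not called (0.99 ± 0.32, edgeR adjusted p = 0.0516). Transcripts of a gene share reads, so the numbers called are not separate evidence for each transcript.

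Since neuronal markers were themselves lower in TBI libraries, the receptor genes were also set against them. In this second scaling, chosen after the values were seen, each library was scaled to the summed counts of the 8 neuronal markers in place of the whole library. Markers with more counts, such as Snap25, Syt1 and Map2, weigh more in that sum. The log2 fold changes of the 8 markers ran from -0.63 (Tubb3) to 0.01 (Eno2). This scaling moved the median log2 fold change of all rows to 0.381, and member values are read against that shift. Under it, 5 receptor genes stayed lower: Htr2a at -0.52 (edgeR adjusted p = 0.000714), Adrb1 at -0.47 (adjusted p = 0.00353), Chrm3 at -0.42 (adjusted p = 0.00705), Adrb3 at -0.66 (adjusted p = 0.0258) and Chrm1 at -0.23 (adjusted p = 0.0454). Htr1f (-0.33), Hrh1 (-0.22), Chrm4 (-0.19), Adra1d (-0.39), Adra2a (-0.33), Chrna4 (-0.03) and Htr7 (0.01) were not called under it. Over the 46 genes the median was 0.20, under that of all rows, and 13 were negative. The 5 lower genes are 10.9% of those tested, beside 1.56% of all rows called lower under this scaling. The number called higher was 10, or 21.7%, beside 42.1% of all rows, namely Drd4 at 3.23, Chrnb4 at 1.82, Chrna3 at 1.39, Chrnb1 at 0.86, Chrm5 at 0.84, Htr3a at 0.81, Hrh3 and Htr5a at 0.44, Chrm2 at 0.39 and Chrnb2 at 0.35. The last of these lie close to the shift of all rows or below it.

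**Figure D4:**
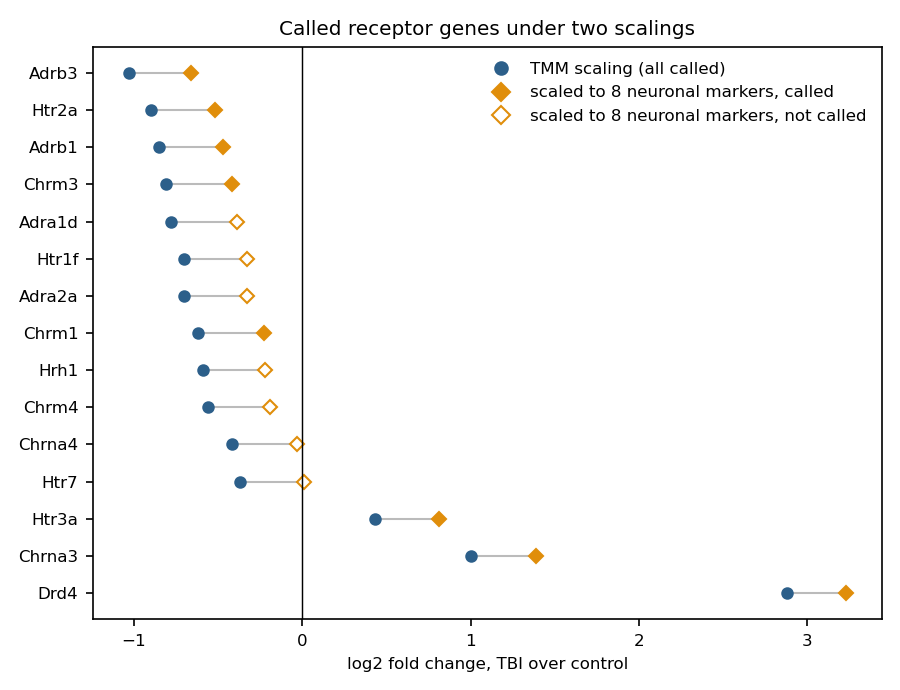
Log2 fold change of TBI over control for the 15 called receptor genes with libraries scaled by TMM (circles) and to 8 neuronal markers (diamonds, filled where called). All points shift to the right, and Htr2a, Adrb1, Adrb3, Chrm3 and Chrm1 stay called on the lower side.

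The genes that make, move and break down these transmitters, and those that carry the receptors' signal, were counted from lists, to be read against the 15.4% of named genes called higher and 10.7% called lower. Of 6 synthesis genes tested, 1 was called, which is Hdc, the enzyme that makes histamine and is also carried by mast cells, basophils and neutrophils. Hdc had 1.03, 1.10 and 3.91 RPKM in TBI libraries and 0.238, 0.403 and 0.276 RPKM in control libraries, all TBI values being higher (2.63 ± 0.46, edgeR adjusted p = 0.00181). TBI library 3, the highest for Hdc, was also the highest for the neutrophil markers given above, and that relation was not tested. Of 7 uptake and storage genes tested none was called. Without control library 2, Slc5a7, the choline transporter, and Slc6a3, the dopamine transporter, were called higher (1.29 and 3.31, edgeR adjusted p = 0.0192 and 0.0208, beside ranges of 0.0192 to 0.967 and 0.0208 to 0.537 over the 13 settings). Slc6a3 had only 14, 21 and 14 counts in TBI libraries and 3, 16 and 0 counts in control libraries, so its fold change is limited by depth. Th, the enzyme that makes the dopamine precursor, was likewise called higher without control library 2 (1.40, edgeR adjusted p = 0.00374) and with the replicate block, beside 0.00374 to 0.668. Of 6 breakdown genes 1 was called lower, Bche (-0.56 ± 0.16, edgeR adjusted p = 0.0252), a second cholinesterase beside acetylcholinesterase. That call was lost without TBI library 1 or 3 or control library 3, with adjusted p between 0.00447 and 0.118, and when scaled to neuronal markers (-0.18, edgeR adjusted p = 0.396).

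Downstream of the receptors, 4 of 20 G protein subunits were called higher and 7 lower (median -0.14), 4 of 20 adenylyl cyclases, phospholipases C and phosphodiesterases higher and 5 lower (median -0.21), and 3 of 17 receptor kinases, arrestins and RGS proteins higher and 4 lower (median -0.12). When scaled to neuronal markers, these became 10 higher and none lower, 8 higher and 3 lower, and 8 higher and 1 lower, beside 42.1% and 1.56% of all rows. Plcb1, the phospholipase that Gq activates, had 31.9, 31.6 and 28.1 RPKM in TBI libraries and 50.2, 51.7 and 46.0 RPKM in control libraries (-0.77 ± 0.08, edgeR adjusted p = 3.72e-05). Its groups were far apart, as were those of Adcy8, a calcium-stimulated adenylyl cyclase (-0.77 ± 0.11, edgeR adjusted p = 0.000577). Rgs4, a brake on Gq and Gi signals in cortical neurons, had 105, 80.6 and 75.5 RPKM in TBI libraries and 174, 129 and 145 RPKM in control libraries (-0.86 ± 0.14, edgeR adjusted p = 0.000896). Other members of these families were higher. The adenylyl cyclases Adcy4 and Adcy7 rose by 0.87 ± 0.16 and 0.70 ± 0.11 on the log2 scale (edgeR adjusted p = 0.00286 and 0.00102). The phospholipase Plcb3 and the phosphodiesterase Pde4b rose by 0.48 ± 0.10 and 0.46 ± 0.07 (edgeR adjusted p = 0.00589 and 0.000774). These are the 4 genes called higher in that list, beside the 5 called lower. Gna15, a Gq-family subunit of blood cells, rose by 0.75 ± 0.22 on the log2 scale (edgeR adjusted p = 0.0330), a call lost without TBI library 1 or 3 or control library 1 or 2, with adjusted p between 0.0156 and 0.154. The 7 lower G protein subunits were Gnb4 (-0.66), Gnai1 (-0.52), Gnb5 (-0.48), Gnao1 (-0.33), Gnaq (-0.31, edgeR adjusted p = 0.0179), Gnaz (-0.28) and Gnb1 (-0.27). Gnao1, Gnaq, Gnaz and Gnb1 lost their calls when some single libraries were left out, as did Gna13, which was called higher (0.24). Rgs1, a leukocyte RGS protein, rose by 3.79 ± 0.43 (edgeR adjusted p = 7.74e-05). Of 10 nicotinic chaperones and Ly6 modulators, 1 was called higher and 2 lower (median -0.23). The higher one was Ric3, a chaperone of Chrna7 receptors, at 0.26 ± 0.07 (edgeR adjusted p = 0.0308). The lower ones were Tmem35 at -0.64 (edgeR adjusted p = 0.0123) and Lypd6 at -0.55 ± 0.11 (edgeR adjusted p = 0.00441). Tmem35 lost its call without TBI library 1 or 3, with adjusted p between 3.11e-05 and 0.0586. When scaled to neuronal markers, Tmem35 (-0.27, edgeR adjusted p = 0.207) and Lypd6 (-0.17, edgeR adjusted p = 0.248) were not called. This list then had 2 called higher and none lower. The call of Ric3 was lost without TBI library 1 or 2 or any 1 control library, with adjusted p between 0.0118 and 0.0936.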

How the data were processed

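Gene and transcript tables were used as deposited. Per the file headers they hold a read count and an RPKM value for each library; RPKM was computed by the authors from row length and column total. Per the submitters' processing notes, reads were aligned with TopHat2 to mm10. Which program counted reads, whether it used strand and which annotation release it took is not given in the sources used here. One cDNA strand was marked with deoxy-UTP, per the labels' protocols. Among counts from 1 to 20, 54.2% were even.

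Counts were tested with edgeR 4.0.16 in R 4.3.3 (filterByExpr with minimum count 10 and minimum total 15, TMM, quasi-likelihood F test, Benjamini-Hochberg over all 42762 gene rows, called under 0.05); the SE is the log2 fold change divided by the square root of F. The steps were tested on simulated data. Other settings were RLE size factors, no filter, the replicate block, each library left out, rows of cDNA clones (FANTOM3) left out, halved counts, limma 3.58.1 voom and DESeq2 1.42.0. Named with values were the members called, the 2 highest uncalled members of each class and up to 3 called genes of each pathway list; others were added after their values were seen. Members and lists were chosen with earlier results of these data known. Replicates differed by more than sampling noise, so none was merged. Samples with the same number were not treated as pairs. One receptor gene is counted in the totals but not reported here.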

Additional observations from a re-analysis of the deposited data

How the results depend on the processing

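Of the 15 receptor genes called, 9 were called under all 13 other settings, and of the 31 not called, 24 were called under none of them. With the scaling to neuronal markers, chosen after seeing the data, as a further setting, these become 6 and 19. The number called lower (12 with all libraries) ranged from 9 to 13 when 1 library was left out, and the number called higher (3 with all libraries) from 1 to 3. Scaled to neuronal markers, 5 were called lower and 10 higher, beside 1.56% and 42.1% of all rows. That scaling moves the median of all rows to 0.381 and turned 18 of 31 negative values positive, among them Htr7 (0.01) and Chrnb2 (0.35). Leaving out control library 2 turned the sign of Htr1d to 1.26, of Drd1a to 0.58 and of Htr2c to 0.41. With the replicate block, 14 were called lower and 4 higher. Same-numbered libraries correlated in their deviations at 0.0543, 0.0546 and 0.0487 over 42762 rows, and each library correlated best with its own number. Deviations from a mean of 3 libraries must balance out, so some libraries correlate positively under any design. These values therefore cannot decide whether same-numbered libraries were paired, and the labels do not say. Why calls and signs depend on the processing was not tested. Genes with few counts (Drd4, Chrnb4 and Slc6a3 in control libraries, and the 7 receptor genes not tested) are limited by depth, and intervals across 3 libraries are wide.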
